A study of Mus musculus with 6 samples.

Results

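The genes described here encode 10 proteins of the piRNA pathway in fetal male germ cells: Mov10l1, Piwil2, Piwil4, Tdrd1, Tdrd5, Tdrd9, Mael, Asz1, Gtsf1 and Pld6. They were found by gene symbol in a table of read counts with 42747 rows, where each symbol matched 1 row, so 10 of 10 were measured. All 10 also passed the filter on low counts that left 18383 genes for testing. The table covers 6 libraries of polyadenylated RNA from whole mouse testes at E16.5, 3 labelled cKO and 3 labelled WT. The series title places CK1α, a serine/threonine kinase encoded by Csnk1a1, in Sertoli cells, the somatic cells that enclose the germ cells in the testis cords, and cKO was taken to mean its conditional knockout in those cells. The sources used here give neither the floxed allele, the Cre driver and the strain nor the controls' genotype beyond WT, and they name no treatment. The design text counts 3 mice in each group, so each library was taken as 1 animal.

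piRNAs are small RNAs of the germ line that guide PIWI proteins to the transcripts and genes of transposons. In mice at this stage the male germ cells are prospermatogonia, which have stopped dividing and rebuild the DNA methylation of their genome. Long precursor transcripts are handed by an RNA helicase to an endonuclease on the mitochondrial surface, the cut pieces are loaded onto a cytoplasmic PIWI protein, and a second PIWI protein carries its guides into the nucleus, where transposon promoters become methylated. Loss of any of several of these proteins in mice derepresses transposons and leaves males sterile.

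Of these 10 genes, 1 was lower in cKO testes and none was higher, where 1.84% of all tested genes were lower and 1.50% higher. That gene was Mov10l1, which encodes the RNA helicase that binds piRNA precursors. It averaged 23.0 ± 1.59 FPKM in cKO and 39.7 ± 11.2 FPKM in WT (SD, n = 3 each), a log2 fold change of -0.79 (edgeR adjusted p = 0.0434). FPKM is the authors' unit, fragments scaled by gene length and library size, and all fold changes are cKO against WT. Another 8 had negative and 1 a positive log2 fold change, between -0.61 and 0.02, none of them called. Outside this list, Mybl1 and Tex15, which act around the same pathway, were also lower in cKO. Genes were called with edgeR's quasi-likelihood test at a Benjamini-Hochberg adjusted p under 0.05 over all 18383 genes.

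Among all tested genes, 339 were called lower and 276 higher, and the median log2 fold change of all tested genes was 0. Library totals were 15092619 to 17431546 counts. Csnk1a1 itself had 396, 405 and 377 CPM (counts scaled to library size) in cKO libraries 1, 2 and 3 and 371, 396 and 348 CPM in WT libraries 1, 2 and 3 (log2 fold change 0.08, edgeR adjusted p = 0.798), so the count of the whole gene in the whole organ did not check the labels. Sertoli cell markers were present in WT and mostly lower in cKO, with 10 of 12 called lower by edgeR and 0 higher. In a whole organ, fewer cells of a type and less RNA per cell cannot be told apart, and this holds for every germ cell transcript below.

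Promoter sequences of 9 of the 10 genes, from 250 bases before to 50 bases after the annotated start, were found in RefSeq (GRCm38.p6). Piwil2 was not matched. The sequences are shown because the hexamer CACGTG occurred in several of them. This hexamer is the canonical E-box that MAX-containing and other helix-loop-helix dimers can bind. It was searched on both strands, where it reads the same, and it was present in at least 1 promoter of 5 of the 9 genes (Mov10l1, Tdrd1, Tdrd9, Mael and Pld6), in 6 of their 13 listed promoters. The overlapping pair of Tdrd1 promoters shares 1 copy. Among all 32851 promoters of this length 7.15% held it, and among the 14281 with at least 10 CpG dinucleotides 10.9% did. These shares are per promoter, while 5 of 9 counts genes with any promoter holding it. The motif was named because it occurs here, so its count beside these shares is no test of an excess. The E2F-type motif GGCGGGA, searched on both strands, was in 1 of the 13 promoters (Mael). It was in 11.3% of all promoters and in 23.4% of those with at least 10 CpG dinucleotides. Matches to both motifs are in capitals below. They describe letters in these windows and were not tied to any measurement of binding.
Mov10l1 promoter (GRCm38.p6, chr15:88982744-88983043, plus strand): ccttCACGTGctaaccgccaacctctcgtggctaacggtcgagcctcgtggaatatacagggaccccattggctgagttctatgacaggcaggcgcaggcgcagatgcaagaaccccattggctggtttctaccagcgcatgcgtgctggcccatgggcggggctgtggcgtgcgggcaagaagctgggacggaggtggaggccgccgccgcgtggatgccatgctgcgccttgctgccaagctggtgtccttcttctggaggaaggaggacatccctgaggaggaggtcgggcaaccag
Tdrd1 promoter (GRCm38.p6, chr19:56825959-56826258, plus strand): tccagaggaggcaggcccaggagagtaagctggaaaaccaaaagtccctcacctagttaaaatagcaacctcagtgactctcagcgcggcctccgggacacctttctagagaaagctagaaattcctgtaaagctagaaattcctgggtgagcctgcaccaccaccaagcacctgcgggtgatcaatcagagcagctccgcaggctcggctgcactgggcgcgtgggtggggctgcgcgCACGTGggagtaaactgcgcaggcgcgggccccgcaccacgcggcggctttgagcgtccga
Tdrd9 promoter (GRCm38.p6, chr12:111971309-111971608, plus strand): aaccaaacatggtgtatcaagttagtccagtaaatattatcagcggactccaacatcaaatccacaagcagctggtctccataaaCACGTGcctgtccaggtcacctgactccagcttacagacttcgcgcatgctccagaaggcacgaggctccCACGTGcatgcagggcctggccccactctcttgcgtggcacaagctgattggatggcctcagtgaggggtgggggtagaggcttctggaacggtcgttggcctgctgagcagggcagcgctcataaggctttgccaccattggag
Mael promoter (GRCm38.p6, chr1:166238695-166238994, minus strand): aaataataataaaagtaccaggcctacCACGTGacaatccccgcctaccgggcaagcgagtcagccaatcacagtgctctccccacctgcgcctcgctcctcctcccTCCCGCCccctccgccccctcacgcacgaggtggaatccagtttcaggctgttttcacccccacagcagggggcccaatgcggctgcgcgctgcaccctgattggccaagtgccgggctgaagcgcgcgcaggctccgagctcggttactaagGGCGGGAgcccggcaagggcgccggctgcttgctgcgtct
Pld6 promoter (GRCm38.p6, chr11:59787608-59787907, minus strand): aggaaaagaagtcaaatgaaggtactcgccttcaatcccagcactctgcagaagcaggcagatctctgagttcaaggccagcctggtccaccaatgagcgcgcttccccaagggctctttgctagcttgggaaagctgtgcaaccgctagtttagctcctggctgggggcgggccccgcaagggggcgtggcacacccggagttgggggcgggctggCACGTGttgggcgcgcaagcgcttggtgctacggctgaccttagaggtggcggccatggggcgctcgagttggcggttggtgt
Counted from the start site, CACGTG began at position -246 in Mov10l1, -11 in Tdrd1, -165 and -95 in Tdrd9, -223 in Mael and -33 in Pld6. GGCGGGA or its complement began at -143 and 11 in Mael. The windows of all the matched genes but Piwil4 and Tdrd1, which also list a CpG-poor start, held more CpG dinucleotides than the median promoter (7). The richest was that of Tdrd5, with 48. The Mov10l1 window held 20 CpG, that of Asz1 17 and that of Gtsf1 13.

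Levels of the 10 genes spanned a wide range. Per length, Mael was the most abundant in all 6 libraries, Piwil2 held rank 2 and Tdrd9 rank 3 in all 6. Mov10l1, Piwil4 and Tdrd1 shared ranks 4 to 6 and changed places between libraries, with means over the 6 libraries of 31.3, 27.6 and 23.3 FPKM. Asz1 (9.51 FPKM), Gtsf1 (9.40 FPKM), Tdrd5 (6.51 FPKM) and Pld6 (4.70 FPKM) took ranks 7 to 10. Among these 4, the ranges over libraries overlapped. Within single libraries, Asz1 always took rank 7 or 8 and Pld6 rank 9 or 10. Gtsf1 took ranks 7 to 9 and Tdrd5 ranks 8 to 10, so only part of the order held in every library.

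**Figure D1:**
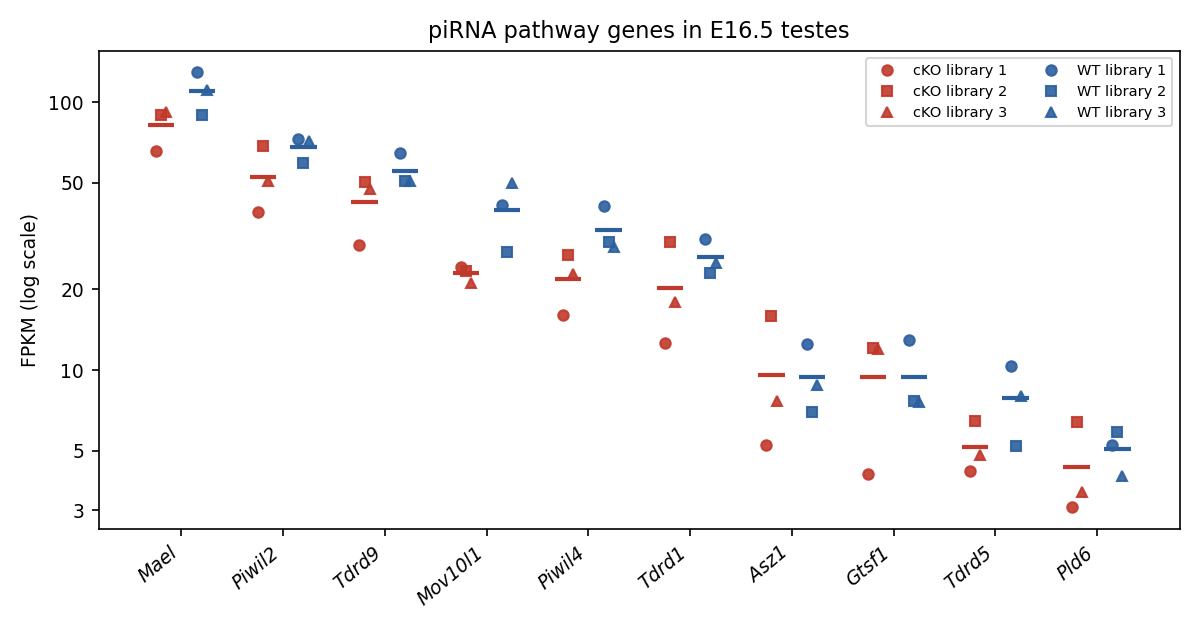
Levels of the 10 piRNA pathway genes, in FPKM on a log axis, ordered by mean. Each point is 1 library, red for cKO and blue for WT, and each line is the mean of 3 libraries. The cKO points of Mov10l1 lie together at 21.2 to 24.3 FPKM, under all WT points, while those of the other genes spread more widely.

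A first group of genes, Mov10l1, Pld6 and Asz1, acts where precursors are processed. Mov10l1 lies on chromosome 15 at 93431324 to 93506022, plus strand (coordinates as deposited, of the C57BL/6NJ annotation). It had 24.3, 23.4 and 21.2 FPKM in cKO libraries 1, 2 and 3, against 41.3, 27.7 and 49.9 FPKM in WT libraries 1, 2 and 3. The cKO libraries were close to each other and all lay below the WT libraries, of which WT library 2 was nearest to them. The log2 fold change was -0.79 (SE 0.186, 95% interval -1.20 to -0.38, edgeR adjusted p = 0.0434), or 1.73-fold lower in cKO, and DESeq2 gave an adjusted p of 0.00215 and limma-voom 0.0578. The call was lost without cKO library 2 (edgeR adjusted p = 0.0507), cKO library 3 (0.191), WT library 1 (0.171) or WT library 3 (0.221), while the log2 fold change ran from -0.99 to -0.59 over the 16 alternative fits.

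Pld6 encodes the mitochondrial phospholipase D family protein that is the mouse counterpart of the fly endonuclease Zucchini (chromosome 11, 61526962 to 61530710, minus strand). It had 3.08, 6.42 and 3.51 FPKM in cKO libraries 1, 2 and 3, against 5.26, 5.90 and 4.01 FPKM in WT libraries 1, 2 and 3. The groups overlapped, with cKO library 2 highest of all 6, and the log2 fold change was -0.23 (95% interval -0.89 to 0.43, edgeR adjusted p = 0.773). Asz1 encodes a protein of the mitochondrial surface that helps assemble the intermitochondrial cement, where piRNA factors gather (chromosome 6, 15810975 to 15869401, minus strand). It had 5.24, 15.9 and 7.66 FPKM in cKO libraries 1, 2 and 3, against 12.5, 6.96 and 8.83 FPKM in WT libraries 1, 2 and 3. cKO libraries 1 and 2 held the lowest and the highest of the 6 values, and the log2 fold change was 0.02 (95% interval -0.75 to 0.79, edgeR adjusted p = 0.983). Without cKO library 2 it was -0.55, and without cKO library 1 it was 0.31. The lower bounds of both intervals lay near the fitted value of Mov10l1.

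The cytoplasmic PIWI protein is encoded by Piwil2, also known as Mili (chromosome 14, 67927458 to 67991730, minus strand). Piwil2 had 38.8, 68.3 and 50.8 FPKM in cKO libraries 1, 2 and 3, against 73.0, 59.3 and 71.8 FPKM in WT libraries 1, 2 and 3. Libraries 1 and 3 of cKO lay below all WT libraries and cKO library 2 among them, with a log2 fold change of -0.38 (95% interval -0.79 to 0.04, edgeR adjusted p = 0.371). Tdrd1 encodes a Tudor domain protein that binds the methylated arginines of the Piwil2 protein (chromosome 19, 58582840 to 58629464, plus strand). It had 12.6, 30.1 and 18.0 FPKM in cKO libraries 1, 2 and 3, against 30.8, 23.1 and 25.2 FPKM in WT libraries 1, 2 and 3. The pattern was that of Piwil2, and the log2 fold change was -0.39 (edgeR adjusted p = 0.51). Without cKO library 2 it was -0.79 and called (edgeR adjusted p = 0.0257). Without cKO library 1 it was -0.14 and not called (edgeR adjusted p = 0.75).

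Tdrd5 encodes another Tudor domain protein of the germ granules (chromosome 1, 166708338 to 166761059, minus strand). It had 4.21, 6.44 and 4.83 FPKM in cKO libraries 1, 2 and 3, against 10.4, 5.23 and 7.98 FPKM in WT libraries 1, 2 and 3. WT library 2 fell among the cKO libraries, and the log2 fold change was -0.61 (95% interval -1.13 to -0.10, edgeR adjusted p = 0.225). Gtsf1 encodes a small zinc finger cofactor of PIWI proteins (chromosome 15, 109578524 to 109598800, minus strand). It had 4.08, 12.1 and 12.0 FPKM in cKO libraries 1, 2 and 3, against 12.9, 7.70 and 7.63 FPKM in WT libraries 1, 2 and 3. Only cKO library 1 lay below the WT libraries, and the log2 fold change was -0.01 (95% interval -0.81 to 0.80, edgeR adjusted p = 0.994). Gtsf1 rested on 87 counts in cKO library 1 and Pld6 on 83, against 1484 or more in every library for Mov10l1.

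The remaining genes belong to the nuclear arm. Piwil4, also known as Miwi2, encodes the PIWI protein that enters the nucleus of prospermatogonia (chromosome 9, 12032016 to 12077857, minus strand). It had 16.1, 26.9 and 22.9 FPKM in cKO libraries 1, 2 and 3, against 40.8, 30.0 and 28.8 FPKM in WT libraries 1, 2 and 3. The groups did not overlap, and the log2 fold change was -0.60 (95% interval -1.03 to -0.18, edgeR adjusted p = 0.139). DESeq2 called it lower (adjusted p = 0.0498) and limma-voom did not (0.129). Without cKO library 2 it was called by edgeR (log2 fold change -0.77, adjusted p = 0.0389). Without cKO library 1 edgeR did not call it (log2 fold change -0.42, adjusted p = 0.196). An antisense gene overlaps Piwil4 with a mean of 12.7 counts, against 1327 to 3594 counts per library for Piwil4 itself. The sources used here do not say whether counting used strand.

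Tdrd9 encodes an RNA helicase with a Tudor domain that works with the Piwil4 protein (chromosome 12, 117959174 to 118052842, plus strand). It had 29.4, 50.5 and 47.3 FPKM in cKO libraries 1, 2 and 3, against 64.5, 50.9 and 50.9 FPKM in WT libraries 1, 2 and 3. The groups met without overlapping, and the log2 fold change was -0.39 (95% interval -0.82 to 0.03, edgeR adjusted p = 0.364). Mael encodes Maelstrom, an HMG-box protein found with Piwil4 and Tdrd9 in one class of germ granule (chromosome 1, 177475001 to 177514431, minus strand). It had 65.9, 89.2 and 91.5 FPKM in cKO libraries 1, 2 and 3, against 129, 89.6 and 111 FPKM in WT libraries 1, 2 and 3. WT library 2 lay between the cKO libraries, and the log2 fold change was -0.42 (95% interval -0.79 to -0.06, edgeR adjusted p = 0.24).

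As counts, 1 of the 10 genes was called lower by edgeR against 1.84% of all tested genes, 2 by DESeq2 against 3.12%, and 0 by limma-voom against 1.82%. At an unadjusted p under 0.05 edgeR had 4 of 10 lower (Mov10l1, Piwil4, Tdrd5 and Mael) and 0 higher, against 8.03% of all genes lower. The groups did not overlap for 3 of 10 (Mov10l1, Piwil4 and Tdrd9, all lower), against 10.9% of all genes lower. The log2 fold change was negative for 9 of 10, against 49.6% of all genes, and the median was -0.39 against 0. The 9 include Gtsf1 at -0.01. Asz1 and Gtsf1 were at 0.31 and 0.35 without cKO library 1, and at -0.55 and -0.22 without cKO library 2. The median was not recomputed with a library left out. These 10 genes are not independent of each other, since they were measured in the same libraries and most went up and down together. The part of germ cell content in this was not tested. No test of the list was made.

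**Figure D2:**
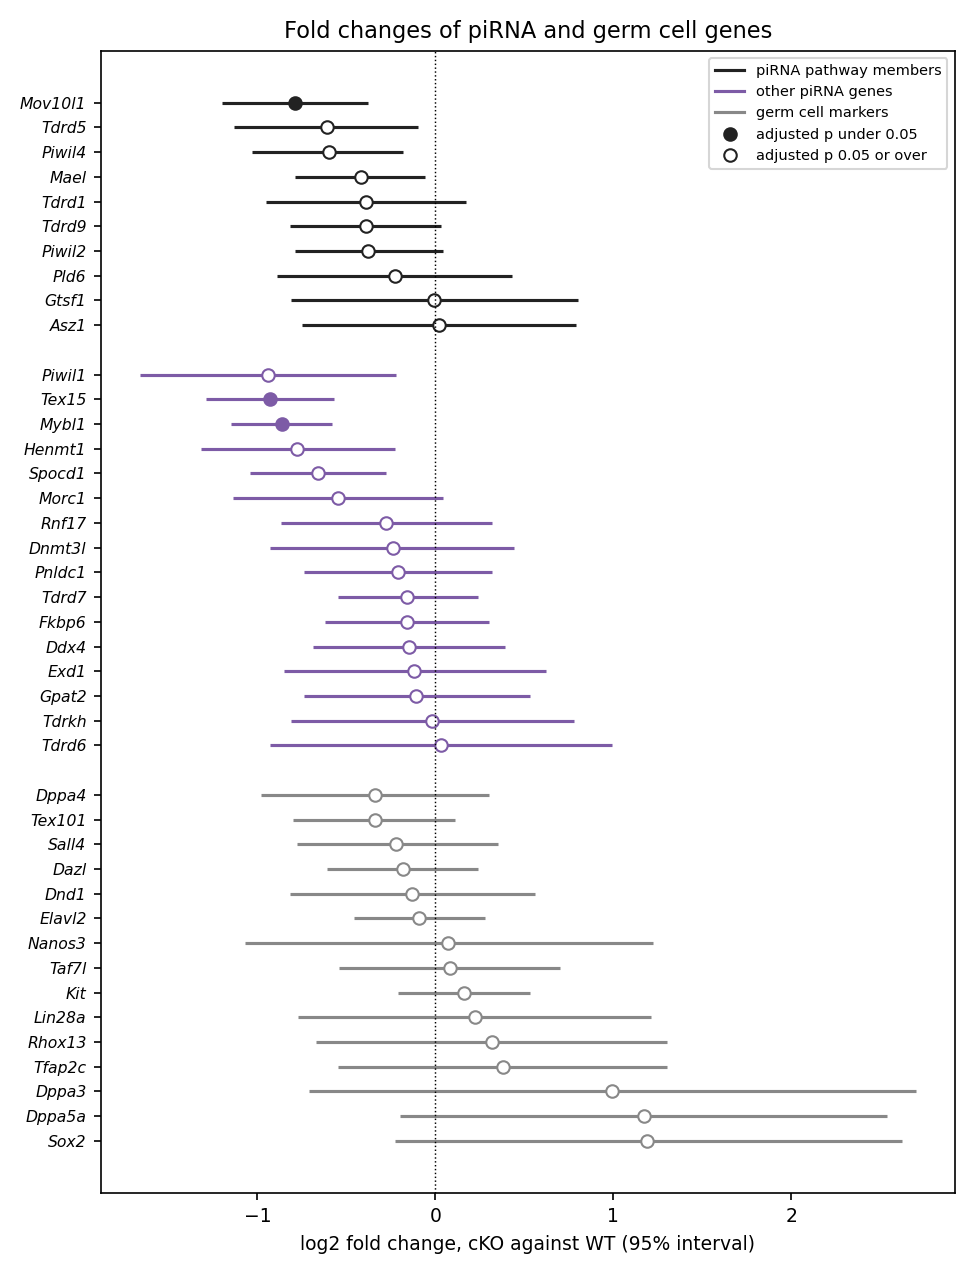
Log2 fold changes of cKO against WT with 95% intervals from the edgeR fit, for the 10 piRNA pathway members, 16 other piRNA genes and 15 germ cell markers. Filled points have an adjusted p under 0.05, and these are Mov10l1, Tex15 and Mybl1.

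Across libraries most of the genes went up and down together. After each gene's log2 CPM was centred on its mean over the 6 libraries, the median of the 10 genes was -0.65, 0.14 and -0.22 in cKO libraries 1, 2 and 3 and 0.48, -0.03 and 0.15 in WT libraries 1, 2 and 3. Of the 10 genes, 9 had their lowest level in cKO library 1, and 7 had their highest in WT library 1. Mov10l1 was the exception at the low end, with its lowest level in cKO library 3, and its highest was in WT library 3. Over the 6 libraries, Pearson's r in the 45 pairs of the 10 genes ran from 0.05 to 0.97, with a median of 0.73. The highest was that of Piwil2 with Tdrd1. The 9 pairs that hold Mov10l1 had r of 0.05 to 0.80 (median 0.49), lowest with Gtsf1 and highest with Tdrd5. The 36 other pairs had r of 0.42 to 0.97, and the lowest of these was that of Mael with Pld6. These values are descriptions over 6 points from the same libraries, and the part of germ cell content in them was not tested.

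**Figure D3:**
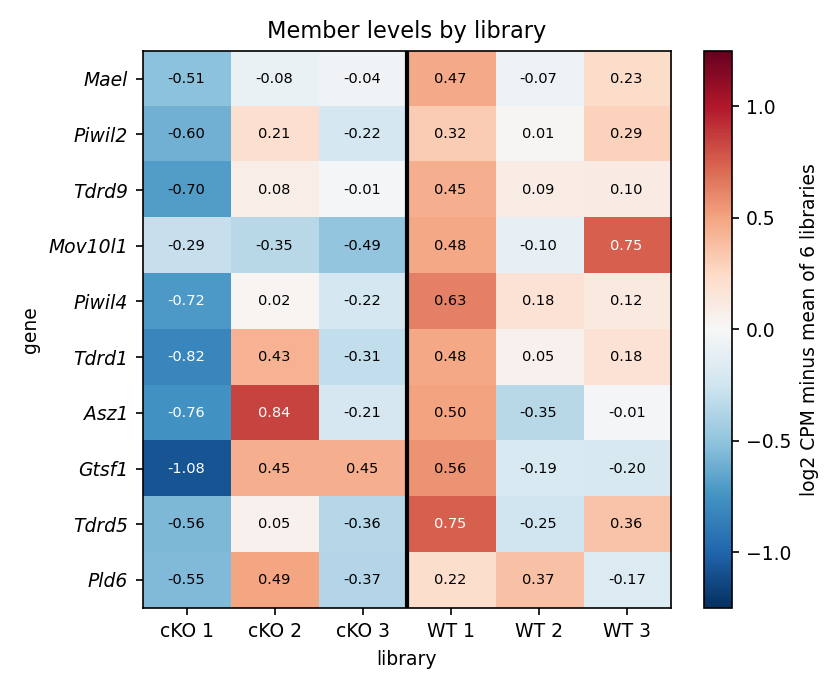
Log2 CPM of each gene minus its mean over the 6 libraries, with cKO libraries left of the line and WT libraries right. Blue marks levels below and red above the gene's mean. cKO library 1 is below the mean for all 10 genes and the lowest library for 9, cKO library 2 is above the mean for 8 genes, and Mov10l1 is below its mean in all 3 cKO libraries.

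Germ cell markers outside the pathway bear on these levels. Of 17 listed, 16 were matched and 15 tested, and edgeR, DESeq2 and limma-voom called none in either direction (by edgeR, 0 in each direction also at an unadjusted p under 0.05). Their median log2 fold change was 0.08, with 6 negative and 9 positive. The most abundant were Dppa4 (log2 fold change -0.34, edgeR adjusted p = 0.623), Dnd1, an RNA-binding protein gene needed for germ cell survival (-0.13, edgeR adjusted p = 0.886), and Dazl, a germ cell translation regulator (-0.18, edgeR adjusted p = 0.704). Those with the smallest p were Dppa5a (1.17, edgeR adjusted p = 0.408), Sox2 (1.19, edgeR adjusted p = 0.414) and Tex101 (-0.34, edgeR adjusted p = 0.47). Over the 16 alternative fits, Dppa4 ran from -0.67 to 0.03, Dnd1 from -0.59 to 0.15 and Dazl from -0.37 to -0.01. Dppa5a ran from -0.02 to 1.62, Sox2 from 0.53 to 2.37 and Tex101 from -0.57 to -0.16. Dppa3, named after its values were seen, was at 0.99 in the main fit and -0.66 without cKO library 2. The median of 0.08 rests on all 6 libraries and was not recomputed without cKO library 2. Nanos2, which directs male germ cell fate, was too low to be tested, at 0, 0.676 and 0.0365 FPKM in cKO libraries 1, 2 and 3 and 0.352, 0.0422 and 0 FPKM in WT libraries 1, 2 and 3.

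Summed over the matched markers, the germ cell level was 120, 274 and 175 FPKM in cKO libraries 1, 2 and 3 and 266, 164 and 166 FPKM in WT libraries 1, 2 and 3. The 10 piRNA pathway genes summed to 204, 329 and 280 FPKM in cKO libraries 1, 2 and 3 and 420, 306 and 366 FPKM in WT libraries 1, 2 and 3. Both sums were lowest in cKO library 1, and germ cell markers were highest in cKO library 2 and piRNA genes in WT library 1. The ratio of the piRNA sum to the marker sum was 1.70, 1.20 and 1.60 in cKO libraries 1, 2 and 3 and 1.58, 1.87 and 2.20 in WT libraries 1, 2 and 3, so the groups overlapped. cKO library 2 also stood high in Dppa3, a gene of early germ cells chosen here after its values were seen, at 34.3 FPKM against 3.66 and 5.47 FPKM in cKO libraries 1 and 3, and 14.1, 5.01 and 2.49 FPKM in WT libraries 1, 2 and 3. The part of germ cell content in the differences of single genes was not tested beyond the ratios given here.

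**Figure D4:**
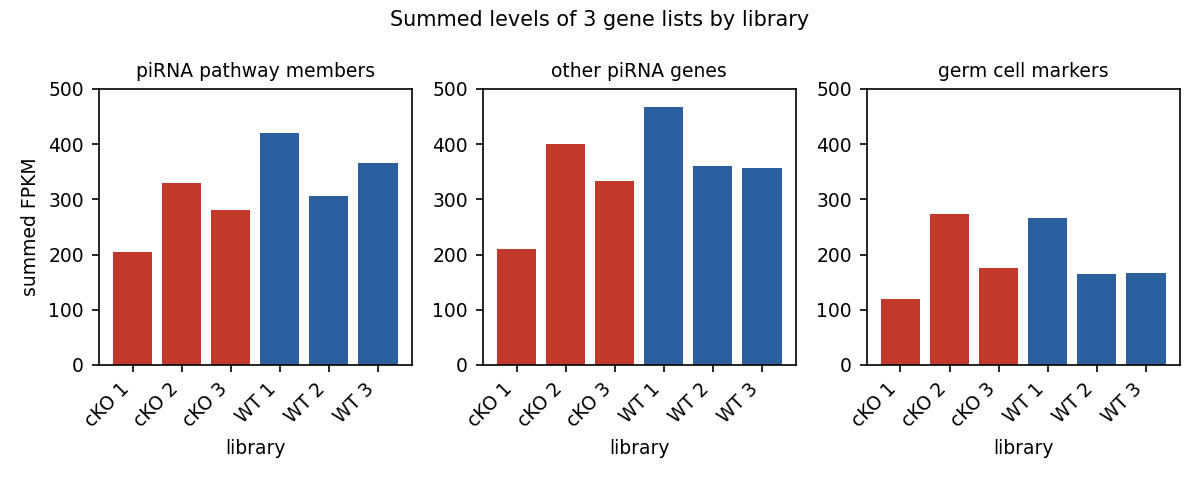
Summed FPKM of the 10 piRNA pathway members, 16 other piRNA genes and 16 germ cell markers in each library, cKO in red and WT in blue. cKO library 1 is lowest in all 3 panels, at 204, 210 and 120 FPKM.

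Each gene was also set against the other 9 and against the germ cell marker sum, within each library. Relative to the mean log2 FPKM of the other 9, Mov10l1 was 1.05, 0.01 and 0.29 in cKO libraries 1, 2 and 3 and 0.64, 0.55 and 1.29 in WT libraries 1, 2 and 3. The groups overlapped, since cKO library 1 was above WT libraries 1 and 2, and the difference was -0.37 on the log2 scale (exact permutation test, two-sided p = 0.4, where 0.1 is the smallest p that 3 against 3 allows). Relative to the marker sum, Mov10l1 differed by -0.64 on the log2 scale (exact permutation p = 0.3), again with overlap. Piwil4 was lower in all cKO libraries on that scale (-2.90, -3.35 and -2.94 in cKO libraries 1, 2 and 3 and -2.70, -2.45 and -2.52 in WT libraries 1, 2 and 3, exact permutation p = 0.1). Tdrd1 was the other gene whose groups did not overlap on that scale, with a difference of -0.36 (exact permutation p = 0.1). These p-values are not adjusted for the 20 comparisons, and none could fall below 0.1. A p of 0.1 here only restates that the groups did not overlap. The share of all tested genes whose groups were apart on these scales was not computed, so the 2 genes are a description.

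**Figure D5:**
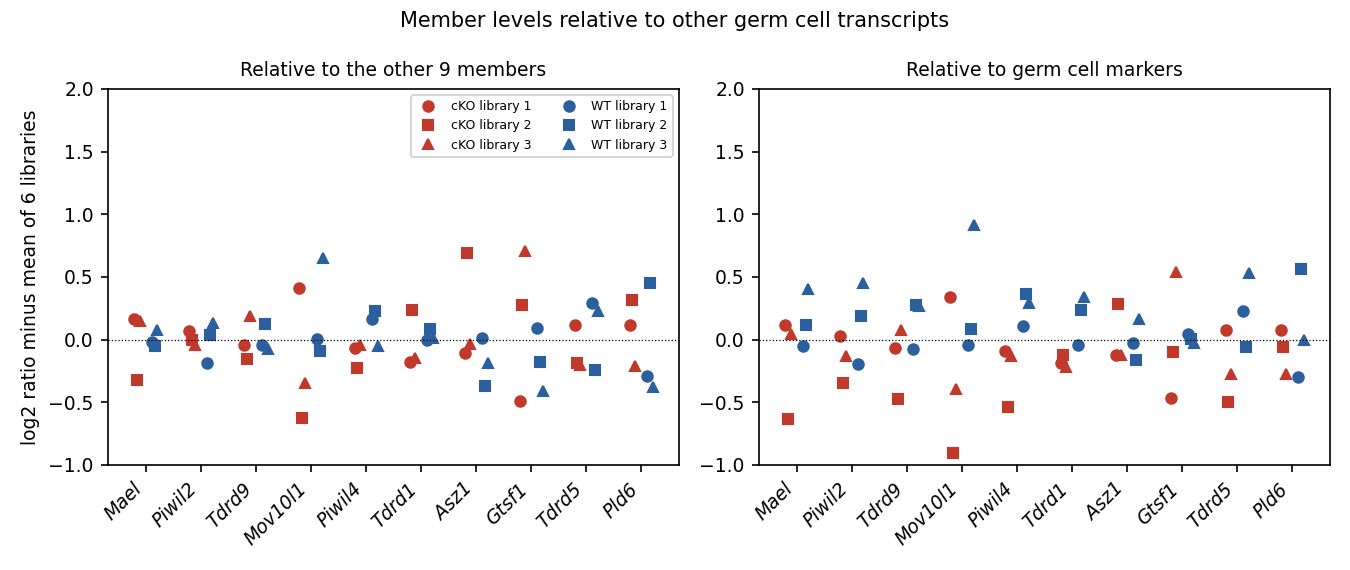
Log2 ratio of each gene to the mean of the other 9 members (left) and to the summed FPKM of the germ cell markers (right), minus its mean over the 6 libraries. Each point is 1 library, cKO in red and WT in blue. For Mov10l1 the groups overlap in both panels, and for Piwil4 and Tdrd1 they are apart in the right panel.

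Of 18 other genes of the pathway and of piRNA-guided silencing, 16 were matched and tested. By edgeR 2 were lower in cKO (Mybl1 and Tex15, against 1.84% of all tested genes) and 0 higher, DESeq2 called 3 lower and limma-voom 2 lower, and neither called any higher. The share of all tested genes called lower was 3.12% by DESeq2 and 1.82% by limma-voom. At an unadjusted p under 0.05, edgeR had 5 lower, against 8.03% of all tested genes, and 0 higher. The median log2 fold change was -0.23 against 0 over all tested genes, with 15 of 16 negative, against 49.6%. For 5 of the 16 the groups did not overlap, all lower, against 10.9% of all tested genes. The 5 were Tex15, Mybl1, Spocd1, Henmt1 and Piwil1, of which Henmt1 and Piwil1 are named after their values were seen.

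Mybl1 encodes A-MYB, the transcription factor that drives the pachytene piRNA programme of adult spermatocytes in mice. It had 5.50, 6.39 and 5.22 FPKM in cKO libraries 1, 2 and 3, against 10.7, 10.4 and 9.96 FPKM in WT libraries 1, 2 and 3. The groups were far apart and each was tight, with a log2 fold change of -0.86 (SE 0.13, edgeR adjusted p = 0.00362), or 1.82-fold lower in cKO. It was called in all 16 alternative fits, with adjusted p up to 0.0358 and log2 fold changes of -0.95 to -0.76. Unlike most of the pathway genes it was not lowest in cKO library 1 but in cKO library 3.

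Tex15 encodes a nuclear partner of the Piwil4 protein that is needed in mice for piRNA-directed transposon methylation. It had 12.7, 16.1 and 15.2 FPKM in cKO libraries 1, 2 and 3, against 31.2, 21.3 and 30.8 FPKM in WT libraries 1, 2 and 3. All cKO libraries lay below all WT libraries, with a log2 fold change of -0.93 (SE 0.164, edgeR adjusted p = 0.00985). The call was lost without cKO library 3 (edgeR adjusted p = 0.059), WT library 1 (0.0572) or WT library 3 (0.0631). Spocd1 encodes a further partner of Piwil4 in de novo methylation. It had 38.2, 32.2 and 47.1 FPKM in cKO libraries 1, 2 and 3, against 74.9, 59.1 and 50.9 FPKM in WT libraries 1, 2 and 3. The groups did not overlap, and the log2 fold change was -0.66 (edgeR adjusted p = 0.0728, DESeq2 adjusted p = 0.0099).

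Henmt1, the methyltransferase that protects piRNA 3′ ends, had 2.51, 3.23 and 2.41 FPKM in cKO libraries 1, 2 and 3, against 5.28, 3.28 and 5.33 FPKM in WT libraries 1, 2 and 3 (log2 fold change -0.78, edgeR adjusted p = 0.135). Piwil1, the PIWI gene of adult spermatocytes, had 1.18, 2.62 and 2.51 FPKM in cKO libraries 1, 2 and 3, against 5.78, 2.94 and 3.36 FPKM in WT libraries 1, 2 and 3 (log2 fold change -0.94, edgeR adjusted p = 0.183). Both had WT libraries close to the cKO range. The abundant Fkbp6, a co-chaperone gene of piRNA loading (log2 fold change -0.16, edgeR adjusted p = 0.773), and Ddx4, the Vasa helicase gene that marks germ cells (-0.15, 95% interval -0.69 to 0.39, edgeR adjusted p = 0.825), were not called. Ddx4 had 24.8, 55.0 and 42.7 FPKM in cKO libraries 1, 2 and 3, against 55.4, 39.1 and 40.7 FPKM in WT libraries 1, 2 and 3, and so was low in cKO library 1 alone.

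The 5 genes most like the mean of the 10 members, by Pearson's r of log2 CPM over the 6 libraries among 11054 other genes that averaged 10 CPM or more, were Inpp4a (r = 0.997), Meioc (0.992), Ripk4 (0.990), Lyar (0.989) and Morc1 (0.989). Meioc and Morc1 are germ cell genes, and Morc1 is on the list of other piRNA genes for its part in transposon silencing. With 6 libraries and this many candidates, high values of r arise easily, so these are descriptions of likeness. None of the 5 was called by edgeR, at log2 fold changes of -0.55 to -0.13 and adjusted p of 0.363 to 0.687.

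Markers of somatic cells moved in other ways across the same libraries. The 12 Sertoli markers summed to 522, 606 and 411 FPKM in cKO libraries 1, 2 and 3 and 1390, 1800 and 1560 FPKM in WT libraries 1, 2 and 3, so the sum was lower in all cKO libraries. Wt1, named after its values were seen, went the other way, at 34.7, 31.7 and 29.7 FPKM in cKO libraries 1, 2 and 3 and 28.1, 27.4 and 26.2 FPKM in WT libraries 1, 2 and 3 (log2 fold change 0.23, edgeR adjusted p = 0.37). The 6 Leydig cell genes (0 called by edgeR, 4 higher at an unadjusted p under 0.05, 2 higher by DESeq2 and 1 by limma-voom) had a median log2 fold change of 0.47. The 6 interstitial genes (0 called by edgeR, 6 higher at an unadjusted p under 0.05, 2 higher by DESeq2 and 0 by limma-voom) had a median of 0.50. Interstitial genes summed to 1750, 2870 and 2670 FPKM in cKO libraries 1, 2 and 3 and 1190, 1920 and 1660 FPKM in WT libraries 1, 2 and 3. This sum was lowest in WT library 1, where 7 of the 10 piRNA pathway genes were highest. The opposite pairing did not hold in cKO library 1, where 9 of the 10 were lowest. There the interstitial sum was the lowest of the cKO libraries. Among all 18383 tested genes, edgeR called 276 (1.50%) higher, DESeq2 527 and limma-voom 268. The share of all tested genes higher at an unadjusted p under 0.05 was not computed. The Leydig and interstitial counts at that threshold therefore have no background here. Of 8 endothelial and macrophage markers edgeR called 1 higher, as it did 1 of 3 matched erythroid genes. The part of these somatic shares in the fold changes of the germ cell genes was not tested.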

How the data were processed

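Polyadenylated RNA from 6 whole testes (3 cKO, 3 WT) had been sequenced on an Illumina NovaSeq, per the labels' protocols. The submitters' processing notes name HISAT2 2.0.5 and GRCm38, while the gene identifiers in the files are those of the C57BL/6NJ annotation. Gene coordinates are therefore the files' own, and promoter coordinates are GRCm38.p6. Which tool counted, and with what strand setting, is not stated in the sources used here. The authors deposited raw counts, whole numbers per gene. They also deposited FPKM, 1 column per library, whose values serve here to compare levels between genes. Unnamed rows held 0.713% to 0.961% of each library's counts and were kept as loci.

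Counts were fitted in R 4.3.3 with edgeR 4.0.16 (filterByExpr, TMM, glmQLFit, glmQLFTest, no covariates), and p-values were adjusted by Benjamini and Hochberg's method over 18383 genes with a threshold of 0.05. Standard errors are the absolute log2 fold change divided by the square root of F. Alternatives used DESeq2 1.42.0, limma 3.58.1, other scalings, filters and pseudocounts (0.1 and 1), a replicate block, and each library left out. Chi-square statistics between libraries of 1 group, divided by their degrees of freedom, were 12.2 to 37.4, so each library was counted as 1 replicate. The procedure was also run on counts simulated from the means and dispersions of these data, with genes drawn independently. That run checks the procedure and not the calls made here. The 10 genes and all lists were chosen with earlier results of these data known. Other genes were named if called, among the 3 most abundant or among the 3 with the smallest p in the lists of other piRNA genes and germ cell markers, with exceptions marked. Listed genes without a row by that symbol (Btbd18, Tdrd12, Pou5f1 and Hbb-bt) were not analysed here.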

Additional observations from a re-analysis of the deposited data

How the results depend on the processing

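The 16 alternatives were run for the pathway genes, the other piRNA genes, the germ cell markers and the counts over all genes, and not for single genes of the somatic lists. Mov10l1, Tex15 and Mybl1 kept negative values in all 16, and Mov10l1 kept its call in 9. The number of pathway genes called lower, 1 in the main fit, was 2 with DESeq2, 3 without a low-count filter, 0 with limma-voom and 0 with limma-trend on log2(FPKM + 0.1) or log2(FPKM + 1), and it ran from 0 to 2 with 1 library left out. The number of other piRNA genes called lower, 2 in the main fit, was 5 without the filter and ran from 1 to 2 with 1 library left out. Germ cell markers called higher numbered 1 without the filter (Dppa3, log2 fold change 0.99, edgeR adjusted p = 0.00532, but -0.66 without cKO library 2) and 0 otherwise. Over all genes, 339 lower and 276 higher became 574 and 527 with DESeq2, 651 and 613 without the filter, and 223 and 149 with limma-trend at a pseudocount of 0.1 (156 higher at a pseudocount of 1). With 1 library left out they ran from 167 to 399 lower and 105 to 342 higher. The cause was not tested.

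Same-numbered libraries of both groups deviated from their group means with correlations of 0.02, 0.18 and 0.03. Of the libraries, 4 of 6 correlated best with their own number. The numbers were not taken as pairs in the main fit, though these values do not exclude pairing. With the replicate block, 372 genes were lower and 324 higher, and the calls of the listed genes did not change in number (1 of the pathway genes, 2 of the other piRNA genes, 0 germ cell markers).

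With 3 animals a group, the 95% intervals of Asz1, Gtsf1 and Pld6 reached down to -0.75, -0.81 and -0.89. Gtsf1 and Pld6 rested on the fewest counts, 87 and 83 in cKO library 1.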
